A study of Petunia x hybrida with 10 samples.

Results

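The regions described here are stretches of petunia RNA that carried a peak titled N6-methyladenosine (m6A) in both libraries of one treatment and in neither library of the other. Peaks of the 4 m6A-titled lists were merged wherever they shared 1 bp or more, which gave 3280 regions. Of these, 84 were ethylene-only (2.56% of all merged regions) and 138 were air-only (4.21%), 222 in all. The samples were corollas, the petals of the flower, of Petunia x hybrida cultivar Mitchell. One group of m6A-titled libraries (n = 2) came from corollas given ethylene at 2 µl/l for 16 h, and the other (n = 2) from corollas held in air for 16 h. RNA bound by an antibody in 3 ethylene and 3 air libraries of N1-methyladenosine (m1A), from the same cultivar, tissue and time, gave peak lists that the rule did not use. The labels name the same anti-m1A antibody for the m6A-titled libraries as for the m1A libraries, so "m6A-titled" refers to the title and not to a verified target. The labels do not state whether replicate libraries were made from different plants, so a p over libraries may rest on technical variation alone.

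m6A is an adenosine methylated at a position that leaves base pairing largely intact. It is laid down on messenger RNA by a methyltransferase complex, removed by demethylases of the AlkB family and bound by YTH-domain proteins, and in plants it is known to affect the stability and translation of transcripts. m1A is methylated on the edge that pairs with other bases and is best known from transfer and ribosomal RNA. Ethylene is a gaseous hormone that hastens the wilting of petunia petals, with large changes in which transcripts are present. A peak listed in 1 treatment can follow the amount of a transcript, the modified share of it, the mix of cells in the corolla or the depth of the library, and these cannot be told apart in peak lists without input values.

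Presence in the 4 lists chose the members, so the counts of 84 and 138 are a description and carry no test. They made up 10.3% of the 814 regions found in both ethylene libraries and 15.1% of the 914 found in both air libraries. Every member consisted of exactly 2 peaks, 1 per library. Ethylene-only members were 4.93% of the regions of ethylene library 1 and 5.79% of those of ethylene library 2, and air-only members were 8.60% and 8.66% of those of air libraries 1 and 2. Ethylene library 1 stood apart from the other lists, with 35.6% of its regions in no other m6A-titled library against 21.02% in ethylene library 2, 26.3% in air library 1 and 23.8% in air library 2. The number of members depended on this requirement of 2 libraries, as a single ethylene library gave 389 or 691 ethylene-only regions and a single air library 517 or 560 air-only regions.

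The members lay on many scaffolds, as did other regions. The 84 ethylene-only regions lay on 77 scaffolds with at most 2 on any scaffold, and the 138 air-only regions on 116 scaffolds with at most 4. The 397 regions found in 1 library of each treatment lay on 286 scaffolds with at most 6. The 558 regions of all 4 libraries lay on 355 with at most 8. Sets of different size are not directly comparable in these counts. Members of both sets were found on 14 scaffolds, of 179 that held any member and 869 that held any merged region. On the plus strand lay 34 of 84 ethylene-only regions (40.5%, 95% exact binomial interval 29.9 to 51.7%) and 63 of 138 air-only regions (45.7%, 37.2 to 54.3%). Regions of all 4 libraries were on the plus strand in 46.8% of cases (42.6 to 51.0%), inside both intervals. These intervals, and those below, cover counting error over regions only.

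Ethylene-only regions were the narrower set. Their median width was 223 bp, with quartiles of 124 and 352 bp and a range of 7 to 858 bp. Air-only regions had a median of 283.5 bp, quartiles of 159 and 399 bp and a range of 35 to 2467 bp. The difference in medians was -60.5 bp, ethylene-only minus air-only. Air-only regions were close in median width to the 397 regions found in 1 library of each treatment (285 bp), and regions of all 4 libraries were wider (305.5 bp). Widths over 500 bp were seen in 6 ethylene-only regions (7.14%) and 20 air-only regions (14.5%), against 121 of 558 regions of all 4 libraries (21.7%). Widths under 100 bp were seen in 11 regions of each set, 13.1% of ethylene-only and 7.97% of air-only regions. The shares were 8.82% in regions found in 1 library of each treatment and 5.91% in regions of all 4 libraries. Among regions seen in 1 library only it was 12.7%.

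Within libraries the same order held. Member peaks had a median width of 202.5 bp in ethylene library 1 and 221 bp in ethylene library 2, where the whole lists had medians of 261 and 271 bp. In air libraries 1 and 2 they had medians of 270 and 278 bp, with whole-list medians of 286 and 273 bp. Both ethylene values lay below both air values. With 2 libraries a group and members chosen from the same lists, this was not tested. The order did not hold when air library 1 was left out (5.50 bp, with air-only regions then called from air library 2 alone).

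**Figure D1:**
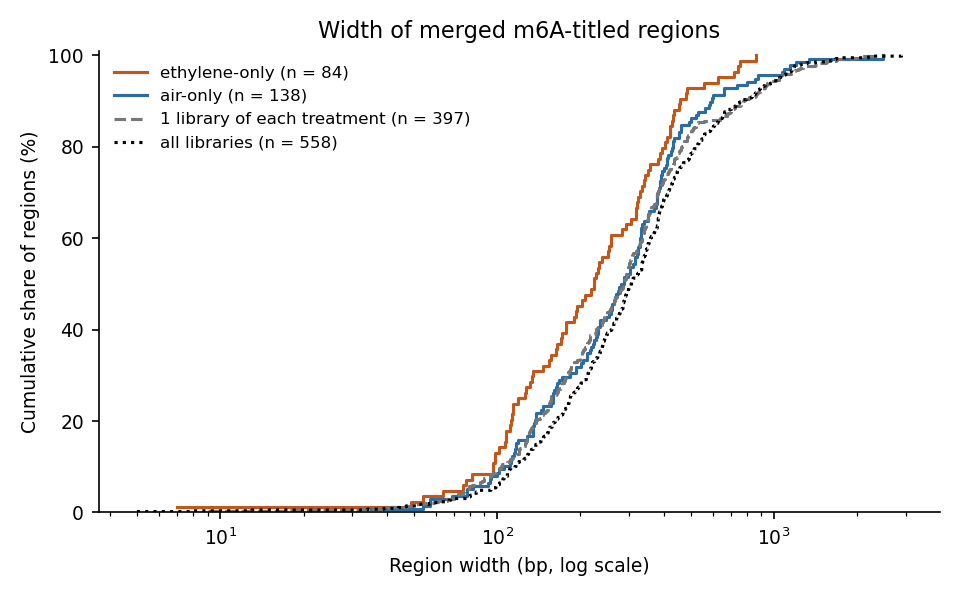
Cumulative share of regions (%) against region width (bp, log scale) for ethylene-only, air-only, mixed (1 library of each treatment) and 4-library regions. The ethylene-only curve lies left of the others at its median of 223 bp, and the air-only curve, with a median of 283.5 bp, runs close to that of the mixed regions.

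The widest ethylene-only region was Peaxi162Scf00419:276028-276885 on the plus strand, 858 bp, and the narrowest was Peaxi162Scf00474:509921-509927 on the minus strand, 7 bp, with scores of 63.9 and 33.5 in ethylene libraries 1 and 2. Coordinates are on scaffolds with the prefix Peaxi162, the Petunia axillaris v1.6.2 assembly, and no gene annotation of it was used here. The widest air-only region was Peaxi162Scf00045:331848-334314 on the plus strand, 2467 bp, with scores of 57.3 and 59.8 in air libraries 1 and 2. The narrowest air-only region was Peaxi162Scf00173:555086-555120 on the plus strand, 35 bp. Neither the labels nor the files say how peak edges were set.

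The edges of the peaks recurred to the base between libraries. Both peaks of a member had identical start and end in 59 of 84 ethylene-only regions (70.2%, 59.3 to 79.7%) and in 99 of 138 air-only regions (71.7%, 63.5 to 79.1%). At least 1 edge was shared in every ethylene-only region and in all but 2 air-only regions. Peaks from libraries of different treatments also coincided to the base, with both edges identical in 245 of 397 mixed regions (61.7%) and in 1800 of 2232 between-treatment peak pairs at regions of all 4 libraries (80.6%). The least shared ethylene-only region was Peaxi162Scf00673:228116-228436 on the minus strand, where 82 bp of 321 bp (25.5%) were common to both peaks. The least shared air-only region was Peaxi162Scf00828:46218-46376 on the minus strand, with 81 bp of 159 bp (50.9%). Both were picked out after their values were seen.

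Most members ranked below the middle of their lists when the ranks in both libraries were averaged. In ethylene library 1 alone, ethylene-only members sat at the middle, with a median score of 55.2 against 55.1 for the whole list. The score is the authors' own value for a peak within its list, and its scale is unknown, so each score was turned into a percentile of its list. Ethylene-only regions had a median mean percentile of 40.4 over their 2 libraries (quartiles 23.6 and 52.7), and air-only regions 35.5 (26.3 and 49.2). Mixed regions had a median of 36.0, and regions of all 4 libraries 71.0. A mean percentile of 75 or more was reached by 6 ethylene-only regions (7.14%), 5 air-only regions (3.62%), 4.79% of mixed regions and 44.8% of regions of all 4 libraries. In score the members thus stood near regions seen once in each treatment and well below regions seen in all 4 libraries. Ethylene-only minus air-only was 4.85 percentile points with all 4 libraries. It was -16.3 and -10.3 without ethylene libraries 1 and 2, and 13.5 and 15.9 without air libraries 1 and 2. In these runs the treatment left with 1 library was called from it alone, which took in regions seen in no other library. Regions seen in 1 library had a median of 27.3. The set called from 1 library had the lower median in each run, so these runs do not show which set ranks higher.

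The 2 ethylene libraries ranked the ethylene-only regions differently. The median percentile was 49.9 in ethylene library 1 and 32.6 in ethylene library 2, and 55 of 84 regions ranked higher in library 1. Air-only regions had medians of 36.8 in air library 1 and 37.9 in air library 2, and 68 of 138 ranked higher in library 1. Spearman's rho between the 2 libraries of a treatment, as a description across regions of shared lists, was 0.34 over the 84 ethylene-only regions and 0.23 over the 138 air-only regions. Over the 558 regions of all 4 libraries it was 0.69 between the ethylene libraries and 0.73 between the air libraries. The members' peaks were ranked less alike between libraries than those of the 4-library regions.

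**Figure D2:**
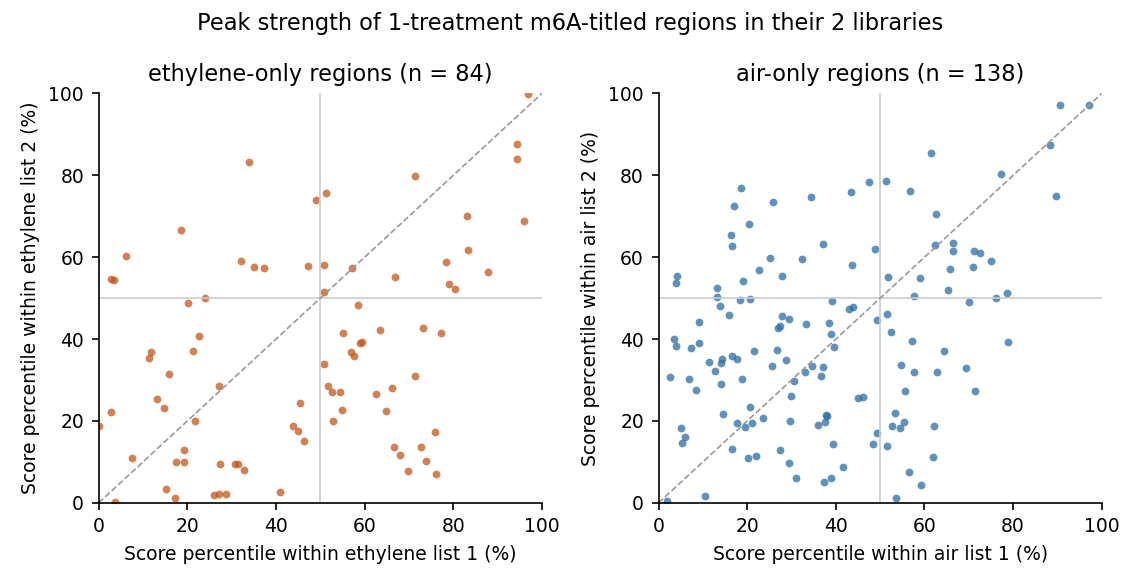
Score percentile (%) of each member in library 1 (x axis) and library 2 (y axis) of its treatment, ethylene-only left (n = 84) and air-only right (n = 138), with grey lines at 50 and a dashed line of equality. Points fill the lower left, and few lie in the upper right, where both percentiles are 75 or more (3 ethylene-only and 4 air-only regions).

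Few members were strong in both libraries. Scores above 500 in both libraries were found in 3 ethylene-only and 3 air-only regions, against 129 of the 558 regions of all 4 libraries in the ethylene lists (23.1%) and 188 in the air lists (33.7%). The ethylene-only ones were led by Peaxi162Scf00131:1309869-1309994 on the plus strand, 126 bp, with scores of 1955 in ethylene library 1 and 3184 in ethylene library 2. Peaxi162Scf00327:835462-835689 on the minus strand, 228 bp, had 1247 and 819. Peaxi162Scf00419:276028-276885 had 1306 and 604. In each of these the 2 ethylene peaks had the same bounds. Air m1A peaks overlapped the regions on Peaxi162Scf00327 and Peaxi162Scf00419.

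The strongest air-only region was Peaxi162Scf00016:1892827-1892904 on the plus strand, 78 bp, with a score of 3100 in both air libraries. That value is the most common one at the top of every list and limits any ranking there. Peaxi162Scf00131:1311417-1311544 on the plus strand, 128 bp, had 1485 in air library 1 and 3100 in air library 2. Peaxi162Scf00197:73048-73104 on the plus strand, 57 bp, had 1078 and 1033. Their bounds too were identical in both air libraries. The leading regions behind these were uneven between libraries. Peaxi162Scf00344:1999056-1999162 on the plus strand (ethylene-only, 107 bp) scored 1691 in ethylene library 1 and 205 in ethylene library 2. Peaxi162Scf00858:327619-327753 on the plus strand (air-only, 135 bp) scored 1323 in air library 1 and 380 in air library 2.

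The rest of those named by mean percentile were weaker. Among ethylene-only regions, Peaxi162Scf00863:8834-8931 on the plus strand scored 308 and 221, and Peaxi162Scf01205:127848-128280 on the minus strand scored 143 and 425. Among air-only regions, Peaxi162Scf00001:521213-521623 on the plus strand scored 380 and 559, and Peaxi162Scf00128:1072789-1073241 on the minus strand scored 137 and 854. Of these 4 regions the air-only one on Peaxi162Scf00001 was the only one in which the peaks differed in bounds, with 319 of 411 bp shared.

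Some members lay close to the lower end of a list. The lowest score of a member was 13.04 in ethylene library 1 and 13.12 in ethylene library 2, where the list minima were 13.04 and 13.09. It was 13.9 and 13.57 in air libraries 1 and 2, where the list minima were 13.01 and 13.10. A score under 20 in at least 1 library was found in 25 ethylene-only regions (29.8%) and 27 air-only regions (19.6%), against 26.2% of mixed regions and 10.2% of regions of all 4 libraries. Just outside the rule lay the regions with a peak in both libraries of a treatment and in 1 library of the other. Both ethylene libraries and 1 air library shared 68 regions with air library 1 and 104 with air library 2, where the air peak had median percentiles of 46.4 and 45.5. Both air libraries and 1 ethylene library shared 79 regions with ethylene library 1 and 139 with ethylene library 2, where the ethylene peak had median percentiles of 49.3 and 49.1. In these regions the peak that kept a region out of the sets was thus near the middle of its list, and it was below the 25th percentile in 17 of 68, 31 of 104, 18 of 79 and 25 of 139 regions.

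The smallest overlaps that kept a region out were of different kinds. At Peaxi162Scf00842:127251-127382 on the minus strand, 132 bp wide, with scores of 136 and 441 in the ethylene libraries, a peak of air library 2 overlapped the ethylene peaks by 12 bp. At Peaxi162Scf00083:1783881-1784029, also on the minus strand and 149 bp wide, a peak of ethylene library 1 overlapped the air peaks by 21 bp, and all 3 scores lay between 20.7 and 31.8. At 2 others the region itself was tiny, and the overlap covered all or nearly all of it. Peaxi162Scf00154:728509-728523 on the plus strand was 15 bp wide with 14 bp of overlap, and the score was 3100 in both ethylene libraries and in air library 2. Peaxi162Scf00165:1249429-1249441 on the minus strand was 13 bp wide, all of it overlapped by a peak of ethylene library 1, with 3100 in all 3 lists.

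Most members had no m6A-titled region nearby. Another merged region, of any library, lay within 1 kb of 14 ethylene-only regions (16.7%, 9.42 to 26.4%) and of 14 air-only regions (10.1%, 5.66 to 16.4%), where the share over all 3280 regions was 10.0%. The nearest neighbour in each of these 28 cases was on the strand of its member. The nearest neighbour had been seen in 1 library only in 10 of the 14 ethylene-only and 7 of the 14 air-only cases, and in all 4 libraries in 2 and 3 cases. Regions seen in 1 library only made up 52.2% of all merged regions, and regions of all 4 libraries 17.0%. A peak of the other treatment lay within 1 kb of 10 ethylene-only regions and 11 air-only regions, and none lay within 100 bp. Within 5 kb the shares with any neighbour were close in both sets, 27.4% for ethylene-only and 29.0% for air-only regions, and 22.4% for regions of all 4 libraries. No other m6A-titled region was on the scaffold of 12 ethylene-only (14.3%) and 7 air-only regions (5.07%), against 8.63% of all regions.

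The members closest to a peak of the other treatment were few. After the pair on Peaxi162Scf00344 described next, the ethylene-only region nearest to an air peak was Peaxi162Scf00646:372662-373066 on the minus strand, 202 bp away, with scores of 22.6 and 20.7. The air-only region nearest to an ethylene peak was Peaxi162Scf00016:1892827-1892904, 178 bp away from a region seen in 1 ethylene library.

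At 2 loci an ethylene-only and an air-only region lay within 5 kb of each other, and in both the regions were on the plus strand with the air-only one on the 3′ side. On Peaxi162Scf00344, 107 bp separated the ethylene-only region at 1999056-1999162 from the air-only region at 1999270-1999386. The ethylene-only peaks scored 1691 and 205 in ethylene libraries 1 and 2, and the air-only peaks 199 and 179 in air libraries 1 and 2. On Peaxi162Scf00131, 1422 bp separated 1309869-1309994 (ethylene-only, 1955 and 3184) from 1311417-1311544 (air-only, 1485 and 3100). The locus on Peaxi162Scf00131 thus held the top-ranked ethylene-only region and the second-ranked air-only region. No other m6A-titled peak lay within 5 kb of either pair.

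The m1A lists at these loci did not follow the division by treatment. On Peaxi162Scf00131, peaks with exactly the bounds of the air-only region were listed in ethylene m1A libraries 1 and 3 (scores 1481 and 3100) and in air m1A libraries 2 and 3 (3100 each). On Peaxi162Scf00344, peaks with exactly the bounds of the air-only region were listed in ethylene m1A library 1 (2726) and air m1A libraries 1 and 2 (1648 and 3100). No m1A peak overlapped the ethylene-only region at either locus.

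**Figure D3:**
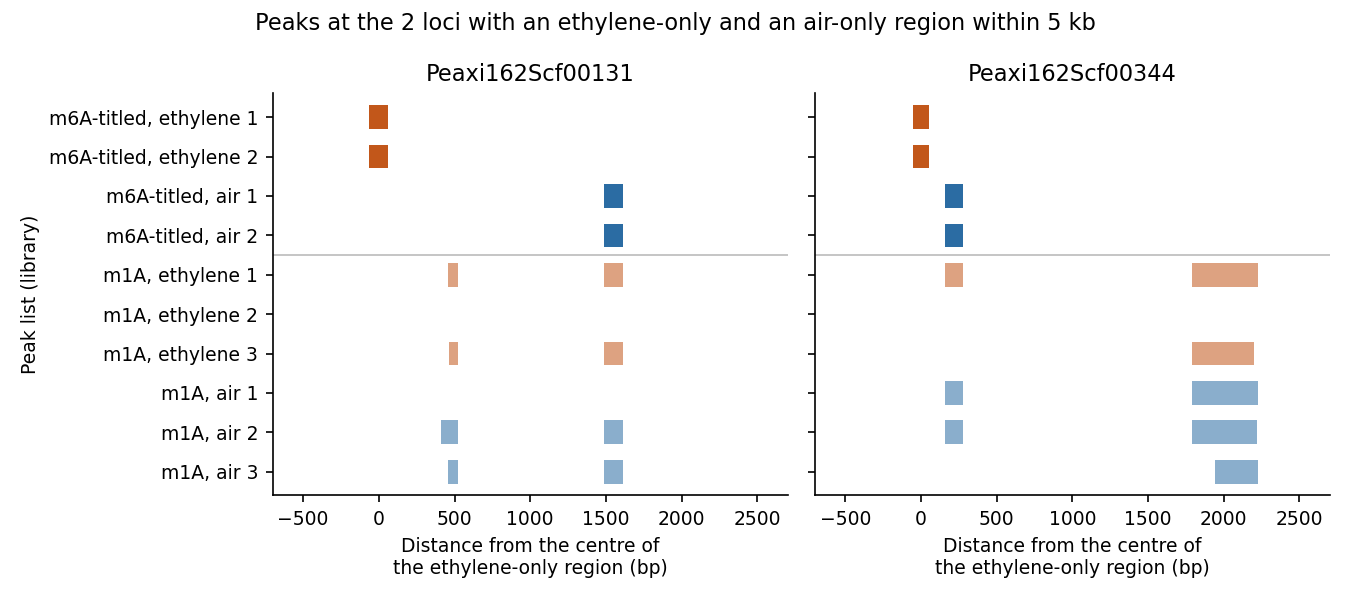
Peaks by library (rows, ethylene orange and air blue, m1A lists in paler shades) at the 2 loci with an ethylene-only and an air-only m6A-titled region within 5 kb, by distance in bp from the centre of the ethylene-only region. The ethylene and air m6A-titled peaks sit side by side without overlap, and m1A peaks of both treatments sit on the air-only region.

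The m1A lists gave a measure that the rule had not used, although the labels name 1 antibody for both kinds of library, so that overlap is not shown to join 2 different marks. Over all 3280 regions, 43.4% shared 1 bp or more with a peak of at least 1 m1A library. Among ethylene-only regions it was 43 of 84 (51.2%, 40.04 to 62.3%), and among air-only regions 47 of 138 (34.1%, 26.2 to 42.6%). The ethylene-only share was 17.1 percentage points higher. Mixed regions (44.6%) lay between the sets, and regions of all 4 libraries (53.9%) were near the ethylene-only set. Regions are not replicates, so the difference between the sets was not tested.

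The order was the same in each of the 6 m1A libraries. In ethylene m1A libraries 1, 2 and 3, a peak overlapped 7, 2 and 12 ethylene-only regions (8.33, 2.38 and 14.3%) and 9, 1 and 11 air-only regions (6.52, 0.725 and 7.97%). The shares over all regions in those libraries were 9.85, 1.31 and 10.3%. In air m1A libraries 1, 2 and 3, it overlapped 23, 25 and 10 ethylene-only regions (27.4, 29.8 and 11.9%) and 20, 30 and 6 air-only regions (14.5, 21.7 and 4.35%). Over all regions these were 20.5, 23.3 and 8.14%. Air-only shares were below those of all regions in 6 of 6 libraries, and ethylene-only shares were above them in 5 of 6, with ethylene m1A library 1 the exception. All 6 libraries were set against the same 222 regions, so that they are not 6 independent repeats of the comparison.

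**Figure D4:**
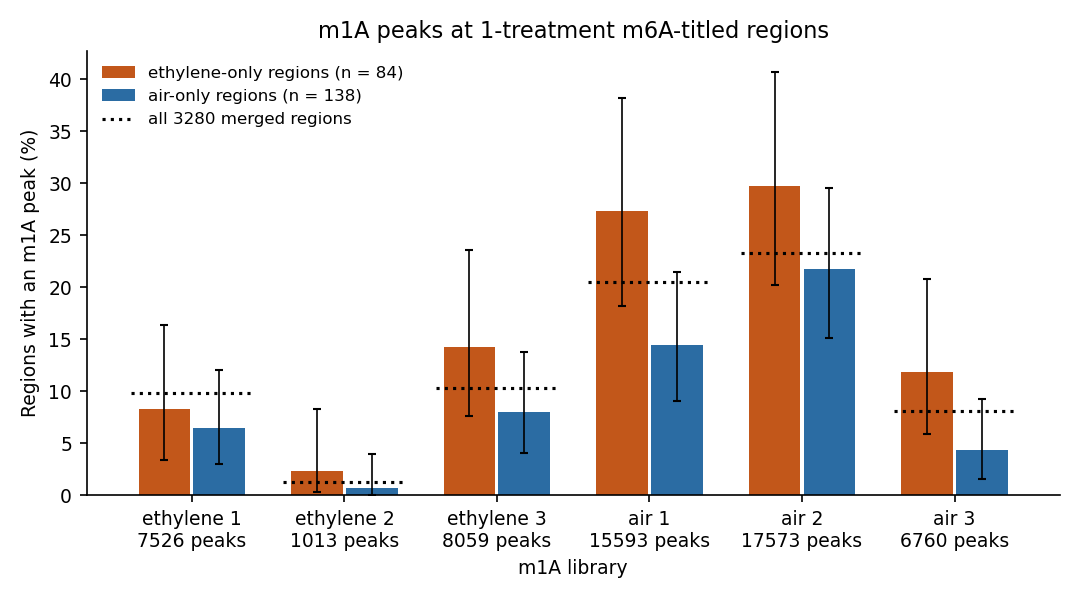
Share of ethylene-only (orange) and air-only (blue) m6A-titled regions with an m1A peak (%), by m1A library, with 95% exact binomial intervals and a dotted line for all 3280 regions. The ethylene-only bar is the taller in each of the 6 libraries, among ethylene and air m1A libraries alike.

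Whether m1A peaks of a treatment favoured the m6A-titled regions of that treatment was tested over the m1A libraries. For each library, the share of ethylene-only regions with an m1A peak was divided by the share of air-only regions with one, as a log2 ratio with 0.5 added to each count. The log2 ratios were 0.37, 1.45 and 0.83 in ethylene m1A libraries 1, 2 and 3, and 0.91, 0.45 and 1.40 in air m1A libraries 1, 2 and 3. They averaged 0.88 ± 0.54 in ethylene and 0.92 ± 0.48 in air m1A libraries (SD, n = 3 each). On this scale the ranges overlapped almost fully, and the difference of -0.04 was far below the spread between libraries (exact two-sided permutation p = 0.8 over 20 regroupings, smallest possible 0.1). Ethylene m1A library 2 rested on 2 and 1 overlapping regions. In percentage points the groups did not overlap. The ethylene-only share exceeded the air-only share by 1.81, 1.66 and 6.31 points in ethylene m1A libraries 1, 2 and 3, and by 12.9, 8.02 and 7.56 points in air m1A libraries 1, 2 and 3. The difference of -6.23 points had the smallest p this design allows (exact two-sided permutation p = 0.1). The share of all regions with an m1A peak was 1.31 to 10.3% in ethylene and 8.14 to 23.3% in air m1A libraries, and its part in the difference in points was not tested.

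m1A peaks of the opposite treatment were listed at members of both sets, more often than over all regions for ethylene-only members and less often for air-only members. An air m1A peak overlapped 39 of 84 ethylene-only regions (46.4%) and 42 of 138 air-only regions (30.4%), where 37.9% of all regions had one. An ethylene m1A peak overlapped 17 of 84 ethylene-only regions (20.2%) and 17 of 138 air-only regions (12.3%), where 17.9% of all regions had one. Among the 43 ethylene-only regions with m1A, 26 had peaks of air m1A libraries alone, 13 of both treatments and 4 of ethylene m1A libraries alone. Among the 47 air-only regions with m1A, these were 30, 12 and 5. The ethylene m1A lists held 1013 to 8059 peaks and the air m1A lists 6760 to 17573, and the part of list length in these counts was not tested.

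The higher ethylene-only share was also seen within splits by width, score and strand. Among regions under 200 bp, 16 of 38 ethylene-only (42.1%) and 10 of 44 air-only regions (22.7%) overlapped an m1A peak, and among those of 200 bp or more, 27 of 46 (58.7%) and 37 of 94 (39.4%) did. With the midpoint of the region required to lie inside an m1A peak, the shares were 37 of 84 (44.0%) and 28 of 138 (20.3%). By score, the shares among regions with a mean percentile of 50 or more were 13 of 24 ethylene-only (54.2%) and 15 of 33 air-only regions (45.5%), and among those under 50 they were 30 of 60 (50%) and 32 of 105 (30.5%). On the plus strand they were 16 of 34 (47.1%) and 20 of 63 (31.7%), and on the minus strand 27 of 50 (54.0%) and 27 of 75 (36.0%). The ethylene-only share was the higher in each of these splits. The ethylene-only and air-only shares lay closer when ethylene library 1 was left out of the m6A-titled set (41.4 and 40.3%, a difference of 1.11 points). They were also closer without ethylene library 2 (44.3 and 38.3%, 6.02 points) and without air library 2 (43.1 and 39.6%, 3.44 points). Without air library 1 the difference was 14.4 points. In these runs the treatment left with 1 library was called from it alone.

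A few members carried m1A peaks of most libraries. m1A peaks of 4 or more libraries were found at 5 of 84 ethylene-only and 4 of 138 air-only regions. They were found at 25 of 558 regions of all 4 libraries and at 90 of all 3280 regions (2.74%). Peaxi162Scf00419:276028-276885, the widest ethylene-only region, overlapped peaks of 5 m1A libraries, all but ethylene m1A library 2. Peaxi162Scf00863:8834-8931 overlapped peaks of ethylene m1A libraries 1 and 3 and air m1A libraries 1 and 2. Peaxi162Scf01183:97290-97547 on the minus strand, with m6A-titled scores of 112 and 107 in the ethylene libraries, overlapped peaks of ethylene m1A library 1 and all 3 air m1A libraries. The other ethylene-only ones, outside the naming rule, were Peaxi162Scf00047:1980083-1980238 and Peaxi162Scf00064:577210-577619, both on the minus strand and each with ethylene m1A library 3 and all 3 air m1A libraries.

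Among air-only regions, Peaxi162Scf00263:1002477-1003673 on the minus strand, 1197 bp, overlapped peaks of all m1A libraries but ethylene m1A library 2, with m6A-titled scores of 347 and 99.9. Peaxi162Scf00131:1311417-1311544 and Peaxi162Scf00038:2037162-2037365 (minus strand, m6A-titled scores of 257 and 180) each overlapped peaks of 2 ethylene and 2 air m1A libraries. The remaining one, outside the naming rule, was Peaxi162Scf00037:1518687-1518953 on the minus strand, with ethylene m1A library 1 and all 3 air m1A libraries. All 4 had m1A peaks listed after ethylene, which follows from how they were picked. With 3 air m1A libraries, a region with peaks of 4 or more m1A libraries must include an ethylene one.

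m1A peaks shared exact edges with the members as well. An m1A peak began at the region's first base in 27 of the 43 ethylene-only regions with m1A (62.8%) and in 25 of the 47 air-only ones (53.2%), and ended at its last base in 25 (58.1%) and 28 (59.6%). For regions of all 4 libraries with m1A these shares were 61.8 and 58.5%. Identical bounds on both sides were found in 13 (30.2%) and 12 (25.5%), and in 26.2% of the 301 regions of all 4 libraries with m1A. Of members without m1A overlap, 28 of 41 ethylene-only and 56 of 91 air-only regions had an m1A region within 5 kb, at median distances of 1026 and 1449.5 bp. So did 159 of 257 regions of all 4 libraries without m1A overlap, at a median of 1417 bp. Among members the m1A region lay on the 3′ side by the strand of the m6A-titled region in 16 of 28 (57.1%, 37.2 to 75.5%) and in 33 of 56 (58.9%, 44.98 to 71.9%). Among regions of all 4 libraries it did so in 106 of 159 (66.7%, 58.8 to 73.9%), a share inside both of the members' intervals. The members' intervals include an even split, and that of the 4-library regions does not.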

How the data were processed

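Peak lists of 4 m6A-titled and 6 m1A libraries were used, 1 list per library. Each deposited peak carries a score from the authors' peak caller, on a scale that the files do not state. Lists hold 1451 to 1704 m6A-titled and 1013 to 17573 m1A peaks, and their lowest scores are 13.0 and 100.0. Per the submitters' processing notes, the tools were MACS 1.4.2, STAR 2.5.1b, CASAVA 1.4 and cutadapt 1.9.3, with no role stated. The notes name human and mouse builds, whereas the scaffold names are of petunia. Depth is unknown, which limits what the absence of a peak can show.

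Peaks were merged at 1 bp shared with Python 3.11.15, pandas 2.3.3 and scipy 1.17.1, checked on simulated lists. Starts are printed 1-based, distances are bases between edges, and percentiles are ranks within a list. Members and comparisons were chosen with earlier results of these data known. Regions were named by a fixed rule: in each set the 6 with the highest mean percentile, the 3 with most m1A libraries, the widest, the narrowest, those nearest the rule's limits, and cross-set pairs within 5 kb. The test over m1A libraries was an exact permutation. The labels do not state whether same-numbered libraries are paired. Alternatives changed merging, score minimum, list length, distances, m1A overlap and libraries. No genome sequence or gene annotation was used here.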

Additional observations from a re-analysis of the deposited data

How the results depend on the processing

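Of 154 alternative values, 121 kept their direction and were not classed as moved, 21 were classed as moved and 12 turned the direction. The m1A balance between treatments is the log2 ratio in ethylene minus air m1A libraries. Every balance that stayed negative was among the 121, including -0.566 against -0.0381 as reported, and -6.23 in percentage points. The 121 are thus not a count of values within their error. Merging at 50 bp shared, on 1 strand or up to 100 bp apart left 84 ethylene-only and 138 to 140 air-only regions. Peaks at or above the pooled median score left 36 and 79, with m1A overlap of 69.4% and 44.3%. Leaving out 1 m6A-titled library gave 152 to 691 ethylene-only and 216 to 560 air-only regions, since the treatment left with 1 library is called from it alone and fewer libraries can exclude a region. Across all libraries left out, the air-only m1A overlap was 24.6 to 40.3%, and the ethylene-only minus air-only difference was 1.11 to 17.7 points. The difference stayed positive in every alternative run, with 10.6 points for m1A peaks at or above the pooled median score (ethylene-only share 38.1%). With the region's midpoint inside an m1A peak, chosen after the data were seen, the difference was 23.8 points and the air-only share 20.3%.

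The median width difference was -84.0 bp with equal list lengths and -70.0 to 5.50 bp without each library. The difference in median score percentile, 4.85 as reported, was -16.3 to 15.9 without each library, negative without either ethylene library. The set called from a single library had the lower median percentile in each of these runs. The runs thus do not show which set ranks higher, and the cause of the change in sign was not tested. A neighbour lay within 500 bp of 4.76% of ethylene-only and 4.35% of air-only regions, and within 5 kb of 27.4% and 29.0%, which follows from the distance itself.

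The m1A balance between treatments turned to 0.0151 and 0.0551 (log2) with m1A peaks within 100 and 500 bp, to 0.103 with m6A-titled peaks at or above the pooled median and to 0.0462 with merging up to 100 bp apart. It was -0.321 to 0.218 without each library. The balance moved furthest, to -0.566, with m1A peaks at or above the pooled median score. It was -0.299 with the region's midpoint inside an m1A peak and -0.284 with merging at 50 bp shared. No setting passed 0.05, which this design cannot reach. In percentage points the difference was -6.23 (exact permutation p = 0.1, the smallest possible). With the replicate block, pairing m1A libraries by number, it was -0.0381 (exact sign-flip permutation p = 1, smallest possible 0.25). Whether an m1A library's number pairs samples is not stated in the labels, and the m6A-titled sets came from no test that could be paired.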
